A study of Mus musculus with 21 samples.

Results

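Low-dose fermented mixed grain (L_FMG) was compared with RMG in the epididymal fat of mice on a high-fat diet. The comparison takes 3 L_FMG arrays and 3 RMG arrays, 6 of the 21 arrays of the series, chosen by their titles, and covers all 16248 genes with a probe that names a single gene. The L_FMG mice ate a high-fat diet, with 40% of energy from fat, to which 0.3% by weight of fermented mixed grain was added. The RMG mice are labelled with the high-fat diet as well, but the protocols describe neither what the code RMG stands for nor its dose. Whether RMG differs from L_FMG in the grain, its dose or its fermentation cannot be told apart from the labels. Another 2 groups of 3 arrays each serve as landmarks: HFD, the high-fat diet alone, and ND, a normal diet in which fat gave 10% of energy. All were male C57BL/6J mice, housed singly, 4 weeks old on arrival, acclimated for 1 week and fed their diets for 12 weeks. The protocol lists 6 diets, whereas the labels hold 7 groups, and RMG is the one it does not list. Arrays carry a number after the group name, taken here as separate mice, although no label says so, and p-values then measure only the spread between these arrays.

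Epididymal fat is a visceral pad made mostly of fat cells, which store triglyceride, release fatty acids and secrete hormones such as adiponectin and leptin. In obese mice the pad gathers macrophages, many of them filled with lipid and rich in lysosomes and some of them dividing, and lays down collagen. Its fat cells lose part of their metabolic programme, and its capillaries thin out. Fermented grain foods are eaten as supplements and were tested here against obesity. The arrays measure whole tissue, in which fewer cells of a type and less RNA per cell cannot be told apart.

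The values are log2 levels, in which a difference of 1 is a factor of 2, and a log2 change is the L_FMG mean minus the RMG mean of a gene. The 6 arrays had medians between 4.23 and 4.37. Between L_FMG arrays the correlation over genes was 0.983 to 0.987, between RMG arrays 0.989 to 0.992, and across the groups 0.981 to 0.989. The tissue label was checked against marker lists. The 10 measured adipocyte genes averaged 9.09 to 9.12 in the L_FMG arrays and 8.52 to 8.73 in the RMG arrays. The 16 genes of the epididymal duct averaged 2.90 to 3.08 in L_FMG arrays and 3.12 to 3.30 in RMG arrays, which did not overlap. The 11 male germ cell genes averaged 4.29 to 4.52 in L_FMG and 4.21 to 5.05 in RMG, which did. The highest value of both lists was that of RMG 9. For the germ cell genes RMG 4 and RMG 10 were at 4.21 and 4.47. The reason was not tested.

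Pck1, a gene of fat cell metabolism, and Vegfa, a growth factor of blood vessels, rose in L_FMG fat, while the histone gene H2bc12, the mitotic regulator Foxm1 and the macrophage gene Ms4a6d fell. Of the 16248 genes, 51 passed limma's test at a Benjamini-Hochberg adjusted p of 0.05, which is 0.314% of those tested. Of these, 17 genes (0.105%) were higher in L_FMG and 34 (0.209%) lower. All 51 had non-overlapping arrays, and their log2 changes ran between 0.41 and 1.72 in size. Quantile normalization of the arrays turned the split to 79 higher and 69 lower, and centring each array on its median gave 7 higher and 19 lower. The count rests on every single array: it was 6 without L_FMG 4, 3 without L_FMG 8, 0 without L_FMG 10, 1 without RMG 4, 1 without RMG 9 and 11 without RMG 10. Without L_FMG 10 limma still gave 1902 genes an unadjusted p under 0.05, and 2495 did with all arrays. The sign of all 51 genes was the same in each of these fits. Leaving out an array could not have turned it, since the arrays did not overlap, so nothing is read from it there. H2bc12 passed in 5 of the 6 fits that left out an array, Foxm1 in 3, Vegfa in 2, another 9 genes in 1 and the other 39 in 0.

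**Figure D1:**
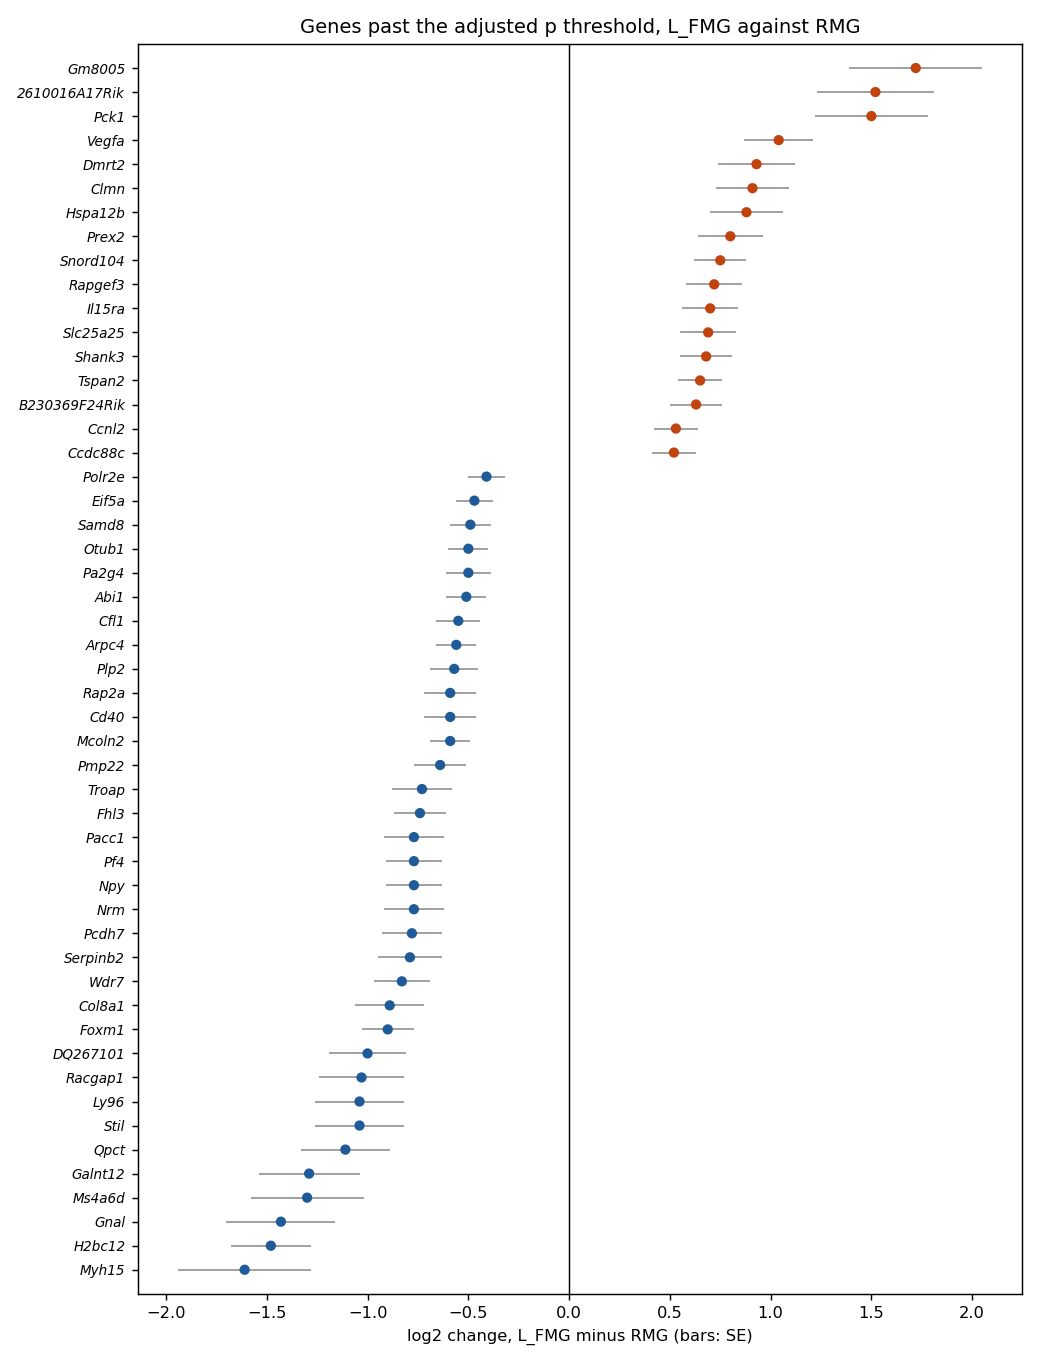
Log2 change, L_FMG minus RMG (3 arrays each), of the 51 genes past limma's adjusted p threshold of 0.05. Bars are 1 SE from the fit over all 21 arrays. The 17 genes on the right, from Gm8005 at 1.72 to Ccdc88c at 0.52, were higher in L_FMG, and the 34 on the left, from Myh15 at -1.61 to Polr2e at -0.41, were lower.

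Pck1, the cytosolic phosphoenolpyruvate carboxykinase that takes part in making the glycerol backbone of triglyceride in fat cells, rose most among the genes with an established name. Its log2 level was 10.44, 10.47 and 10.91 in the L_FMG arrays, against 8.89, 9.04 and 9.39 in the RMG arrays. The groups lay more than 1 log2 unit apart at their nearest arrays, with a log2 change of 1.5 ± 0.28 (SE, n = 3 each; limma adjusted p = 0.0307). Pck1 averaged 9.72 ± 0.32 in HFD fat and 10.79 ± 0.31 in ND fat (SD, n = 3 each), so the L_FMG level was near that of the normal diet. Slc25a25, a carrier that moves ATP-magnesium and phosphate across the inner mitochondrial membrane, rose by 0.69, with 5.92, 5.92 and 6.21 in L_FMG against 5.27, 5.29 and 5.42 in RMG. Rapgef3, the cyclic AMP sensor Epac1, rose by 0.72 on its brighter probe and had a log2 change of 0.17 on the other, which did not pass. Nor did Rapgef3 pass with the mean of both probes (limma adjusted p = 0.104). Prex2, an exchange factor for the GTPase Rac, rose by 0.80, and its L_FMG arrays, between 7.74 and 7.86, were all above the RMG arrays, between 6.90 and 7.10.

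The promoter of Pck1 is shown because it carries the textbook cyclic AMP element of this gene, and cyclic AMP is the fasting signal of fat cells. It is the RefSeq window of 250 bases before to 50 bases after the start in build GRCm38.p6, chr2:173152823-173153122 on the plus strand, 5′ to 3′, with the element TTACGTCA in capitals.
Pck1: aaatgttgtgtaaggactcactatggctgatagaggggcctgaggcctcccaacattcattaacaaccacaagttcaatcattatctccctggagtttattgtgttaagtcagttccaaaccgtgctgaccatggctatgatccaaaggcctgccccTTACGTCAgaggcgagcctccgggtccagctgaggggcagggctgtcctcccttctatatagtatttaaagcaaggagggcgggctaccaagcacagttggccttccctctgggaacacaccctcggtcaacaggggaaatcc
The element TTACGTCA occurs on either strand in 0.499% of the 32851 promoter windows of the RefSeq table. Of the 17 genes that rose, 13 have at least 1 window there, and 1 of them, Pck1, holds it. This is a count per gene, whereas the share is per window. The element was picked for Pck1, so that hit was fixed in advance, and nothing is read from the count. A match of letters is a description and does not show that a factor was bound.

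Apart from Pck1, no gene of the adipocyte list passed. Of 10 measured adipocyte identity genes, 1 passed (Pck1, already named), where 0.105% of all genes passed as higher. All L_FMG arrays lay above all RMG arrays for 8 of them, against 8.56% of all genes. Of the 10, 9 had positive log2 changes, and the median was 0.46 beside -0.01 over all genes. Plin4, a coat protein of lipid droplets, was at 10.58, 10.41 and 10.54 in L_FMG against 9.51, 9.62 and 9.78 in RMG (log2 change 0.87 ± 0.21, limma adjusted p = 0.0583). The insulin-regulated glucose transporter Slc2a4 had a log2 change of 0.65 (limma adjusted p = 0.133), and Adipoq, the gene of adiponectin, one of 0.45 (limma adjusted p = 0.2). Lep, the gene of leptin, was the negative one: it was at 11.51, 11.43 and 10.64 in L_FMG and at 11.40, 11.45 and 11.52 in RMG, so its arrays overlapped (log2 change -0.26, limma adjusted p = 0.552). L_FMG 10 alone lay below the others there, and without it the log2 change was 0.01.

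Genes of lipid handling gave a mixed picture. In the list of lipolysis and lipid droplet genes, 5 of 10 lay without overlap above RMG and 1 below, with a median log2 change of 0.27 and 0 passing, where 8.56% of all genes lay above and 13% below. G0s2, the inhibitor of the triglyceride lipase of fat cells, had a log2 change of 0.87 ± 0.20 (limma adjusted p = 0.055), whereas Plin2, the droplet coat protein that lipid-filled macrophages also carry, had one of -0.45. Of 14 triglyceride synthesis genes, 1 passed (Pck1), where 0.105% of all genes passed as higher, and 5 lay above without overlap (median 0.25). Gpihbp1, the capillary anchor of lipoprotein lipase, was at 7.90, 7.71 and 7.92 in L_FMG against 7.19, 7.31 and 7.13 in RMG (log2 change 0.64, limma adjusted p = 0.055). The 9 measured genes of branched-chain amino acid breakdown all had positive log2 changes (median 0.34), 5 of them without overlap and 0 passing. The 14 fatty acid synthesis genes were split, with a median of 0.08: the regulator Srebf1 had a log2 change of 0.50 and the desaturase Scd1 one of 0.38, while the elongase Elovl6 had -0.69 and Fasn, the fatty acid synthase, 0.05.

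Of 14 measured cholesterol synthesis genes, 13 had negative log2 changes. None passed limma's adjusted threshold, 8 lay without overlap below RMG, against 13% of all genes, and the median log2 change was -0.40. Cyp51, the lanosterol demethylase, had a log2 change of -0.78 (limma adjusted p = 0.0853), Fdps, the farnesyl diphosphate synthase, one of -0.65 (limma adjusted p = 0.0732), and Srebf2, the regulator of the pathway, one of -0.44 (limma adjusted p = 0.0908). The list mean per array was 6.42, 6.31 and 6.07 in L_FMG against 6.68, 6.56 and 6.70 in RMG. L_FMG 10 was the lowest of the 6 arrays, and without it the median was -0.31.

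Vegfa, the main growth factor of blood vessels, rose with the smallest adjusted p of any riser. It was at 8.58, 8.98 and 9.0 in the L_FMG arrays against 7.75, 7.70 and 7.99 in the RMG arrays (log2 change 1.04 ± 0.17, limma adjusted p = 0.0267). The groups did not overlap, and Vegfa averaged 8.21 ± 0.22 in HFD fat and 8.72 ± 0.02 in ND fat (SD, n = 3 each). Hspa12b, a member of the heat shock protein family found in endothelium, rose by 0.88 (6.63, 6.78 and 6.65 in L_FMG against 5.72, 5.73 and 5.96 in RMG). In the endothelial identity list, 9 of the 12 measured genes lay above without overlap and 0 below, against 8.56% and 13% of all genes, with a median log2 change of 0.39, though 0 passed. The Vegfa receptors Kdr and Flt1 had log2 changes of 0.67 (limma adjusted p = 0.0839) and 0.60 (limma adjusted p = 0.0724), and Ptprb, an endothelial phosphatase, one of 0.69 (limma adjusted p = 0.0746). In the 16 vascular growth genes, 1 passed (Vegfa), where 0.105% of all genes passed as higher, and 6 lay above without overlap (median 0.31). The 10 measured genes raised by low oxygen had a median of -0.01: of these, Vegfa and Ndrg1 (0.55) lay above without overlap, and Slc2a1, the basal glucose transporter, lay below (-0.54). The 8 smooth muscle and pericyte genes all had positive log2 changes, from 0.04 for Acta2 to 0.46 for Myh11, with 2 not overlapping.

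**Figure D2:**
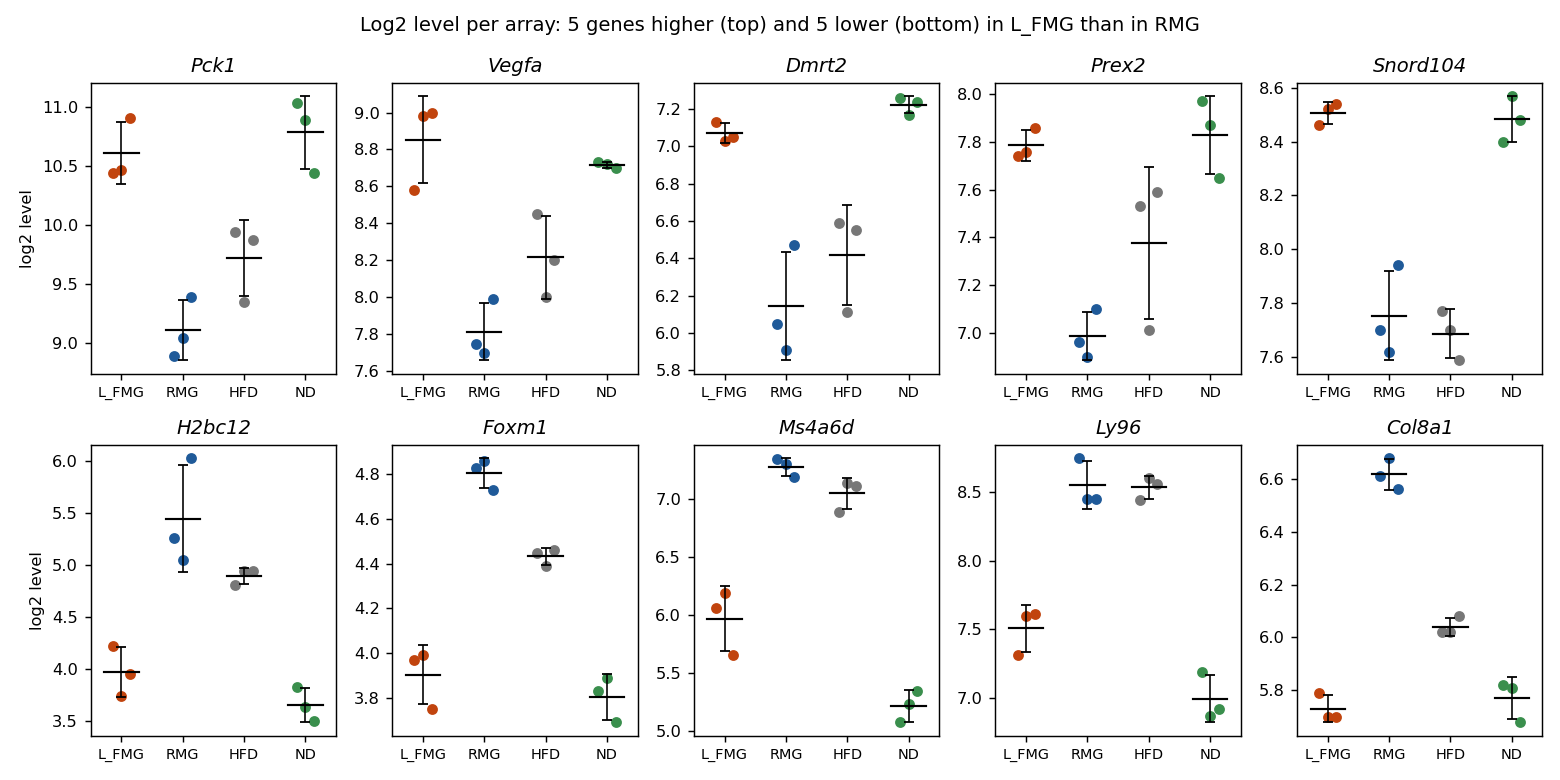
Log2 level per array (dots), mean (line) and SD (bar) of 10 genes past the threshold in L_FMG, RMG, HFD and ND fat, 3 arrays each. In every panel the L_FMG and RMG dots do not overlap, and the HFD mean lies between them except for Snord104, whose HFD mean of 7.69 is just below the RMG mean of 7.75.

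The other genes that rose have varied roles. Dmrt2, a transcription factor of the doublesex family, was at 7.13, 7.03 and 7.05 in L_FMG against 6.05, 5.91 and 6.47 in RMG (log2 change 0.93 ± 0.19, limma adjusted p = 0.0416). Its neighbour on chromosome 19 in RefSeq's order of genes, the long non-coding RNA 2610016A17Rik, rose as well (1.52 ± 0.29, limma adjusted p = 0.0307), and for 2 overlapping or adjoining transcripts the array cannot always separate the signals. Clmn, which encodes the membrane protein calmin, rose by 0.91. Il15ra, the receptor chain that presents interleukin 15, rose by 0.70. Snord104, a small nucleolar RNA that guides methylation of ribosomal RNA, rose by 0.75, with L_FMG arrays within 8.46 to 8.54 and RMG arrays within 7.62 to 7.94. Shank3, a scaffold protein of synapses, rose by 0.68 on the brighter of its probes, and the other gave 0.07. With the mean of both probes Shank3 did not pass (limma adjusted p = 0.15). Tspan2, a tetraspanin, rose by 0.65, Ccnl2, a cyclin that acts in splicing, by 0.53 (0.33 on its other probe, and not past the threshold with the mean of both) and Ccdc88c, a binder of the Wnt relay protein Dishevelled, by 0.52. The predicted model Gm8005 showed the largest change of those that passed, at 4.36, 4.79 and 4.31 in L_FMG against 2.80, 2.84 and 2.66 in RMG (1.72 ± 0.33). It belongs to a family of near-identical models, so its signal may be shared among them. All 3 predicted models that passed were higher in L_FMG, the third being B230369F24Rik at 0.63.

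H2bc12, a gene of the core histone H2B, had the smallest p of all genes. It was at 4.22, 3.74 and 3.96 in L_FMG against 5.26, 5.05 and 6.03 in RMG (log2 change -1.48 ± 0.20, limma adjusted p = 0.00459). The arrays were far apart, and the HFD mean of 4.90 ± 0.07 lay between them, above the ND mean of 3.66 ± 0.17 (SD, n = 3 each). Histone genes are close copies of each other, so which copy gave the signal is uncertain. Foxm1, the transcription factor that turns on genes of late cell cycle, fell by 0.90 (limma adjusted p = 0.00459). It was at 3.97, 3.99 and 3.75 in L_FMG (SD 0.14) against 4.83, 4.86 and 4.73 in RMG (SD 0.07). Racgap1, part of the complex that organises the spindle midzone for cytokinesis, fell by 1.03 (5.15, 5.08 and 4.67 in L_FMG against 5.93, 5.83 and 6.21 in RMG). Stil, needed to build new centrioles, fell by 1.04 (3.81, 3.99 and 3.71 in L_FMG against 4.89, 4.50 and 5.23 in RMG). Troap, a protein linked to the mitotic spindle, fell by 0.73, and Nrm, the nuclear envelope protein nurim, by 0.77.

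The listed genes of the cell cycle shared the direction in full. Of 20 measured cell division genes, 20 had all L_FMG arrays below all RMG arrays, against 13% of all genes, with a median log2 change of -0.78, and 0 passed the adjusted threshold. Rrm2, the ribonucleotide reductase subunit made in S phase, was at 4.15, 4.13 and 4.16 in L_FMG against 4.96, 5.15 and 5.06 in RMG (log2 change -0.91, limma adjusted p = 0.055). Top2a, the topoisomerase of dividing cells, had -1.07 (limma adjusted p = 0.0608), Birc5, the mitotic survivin, -0.99 (limma adjusted p = 0.0637) and Pcna, the sliding clamp of replication, -0.82 (limma adjusted p = 0.0756). The smallest difference was that of Tyms, the thymidylate synthase, at -0.37. The list mean was 5.19, 5.24 and 4.77 in L_FMG against 5.82, 5.59 and 6.01 in RMG, with HFD arrays at 5.28, 5.71 and 5.40 and ND arrays at 4.80, 4.79 and 4.87. L_FMG 10 was the lowest of the L_FMG arrays, and the list median was -0.58 without it. Of 14 replication-dependent histone genes, which do not include H2bc12, 5 lay below without overlap and 0 above (median -0.46). Cdkn1a, the p21 inhibitor of cyclin-dependent kinases, lay lower too, at 7.40, 7.64 and 7.18 in L_FMG against 8.24, 8.57 and 8.16 in RMG (log2 change -0.92, limma adjusted p = 0.055).

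The promoters of H2bc12, Racgap1, Stil and Troap are shown because all 4 genes fell and all 4 hold the CCAAT box, a promoter element common in genes of dividing cells. They are RefSeq windows of the same span in build GRCm38.p6, 5′ to 3′ on the gene's strand: H2bc12 at chr13:22035571-22035870 (plus), Racgap1 at chr15:99651607-99651906 (minus), Stil at chr4:114999868-115000167 (plus) and Troap at chr15:99074723-99075022 (plus). Capitals mark CCAAT on either strand, the octamer ATTTGCAT of H2B promoters in H2bc12 and the letters TTTGAA, known as the cell cycle genes homology region, in Racgap1.
H2bc12: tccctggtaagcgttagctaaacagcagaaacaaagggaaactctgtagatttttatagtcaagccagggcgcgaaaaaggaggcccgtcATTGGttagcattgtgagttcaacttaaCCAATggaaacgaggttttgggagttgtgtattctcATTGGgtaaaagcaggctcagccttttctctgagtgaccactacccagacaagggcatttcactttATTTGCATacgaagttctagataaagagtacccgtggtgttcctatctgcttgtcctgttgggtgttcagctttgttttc
Racgap1: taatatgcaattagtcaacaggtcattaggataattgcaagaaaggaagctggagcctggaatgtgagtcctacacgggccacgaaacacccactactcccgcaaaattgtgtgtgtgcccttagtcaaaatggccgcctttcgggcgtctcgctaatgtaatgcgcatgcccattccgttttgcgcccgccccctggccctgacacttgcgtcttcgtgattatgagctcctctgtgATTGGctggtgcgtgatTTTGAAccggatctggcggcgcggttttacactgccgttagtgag
Stil: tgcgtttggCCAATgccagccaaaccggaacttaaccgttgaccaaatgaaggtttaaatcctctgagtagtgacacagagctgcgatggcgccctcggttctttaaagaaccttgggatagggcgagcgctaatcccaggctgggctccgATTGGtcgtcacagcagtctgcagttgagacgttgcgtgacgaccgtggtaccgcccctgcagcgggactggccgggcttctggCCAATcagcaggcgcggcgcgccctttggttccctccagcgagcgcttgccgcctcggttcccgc
Troap: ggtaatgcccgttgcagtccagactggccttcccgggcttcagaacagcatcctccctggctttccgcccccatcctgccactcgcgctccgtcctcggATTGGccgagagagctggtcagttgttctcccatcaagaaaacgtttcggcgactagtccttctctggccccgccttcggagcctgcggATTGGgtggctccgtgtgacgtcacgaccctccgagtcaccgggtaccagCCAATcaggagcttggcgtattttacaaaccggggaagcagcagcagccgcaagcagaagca
H2bc12 holds 3 CCAAT boxes and 1 octamer, Racgap1 1 CCAAT box followed by 1 TTTGAA, and Stil and Troap 3 CCAAT boxes each. CCAAT occurs in 37.4% of all 32851 windows, in 13 of the 16 cell division genes that have a window (81.2%), in 11 of 24 fallers (45.8%) and in 5 of 13 risers (38.5%). TTTGAA occurs in 17.9% of windows and in 6 of the 16 cell division genes, and the octamer in 1.74% of windows and 3 of 13 histone genes. A gene counted if any of its windows held the letters, whereas the share over all is per window. Genes with several windows can thus score higher, so these shares are not on the same footing. The table holds no window for Foxm1, Ms4a6d or Ly96.

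Among macrophage genes, single genes fell in L_FMG and most listed genes lay below RMG. Ms4a6d, a membrane protein of macrophages with close relatives in its gene cluster, fell by 1.30 (6.06, 6.19 and 5.65 in L_FMG against 7.34, 7.30 and 7.19 in RMG, limma adjusted p = 0.0439). Ly96, the MD-2 protein with which Toll-like receptor 4 binds endotoxin, fell by 1.04 (7.31, 7.60 and 7.61 in L_FMG against 8.75, 8.45 and 8.45 in RMG, limma adjusted p = 0.0439). In both genes the nearest arrays of the groups were more than 0.8 apart. Qpct, the enzyme that closes the N-terminus of several chemokines, fell by 1.11, Pf4, a chemokine of platelets and macrophages, by 0.77, Cd40, the costimulatory receptor of antigen-presenting cells, by 0.59 and Mcoln2, a cation channel of endolysosomes, by 0.59. The levels of HFD fat were high for most of these: Ms4a6d averaged 7.05 ± 0.13 in HFD and 5.21 ± 0.14 in ND (SD, n = 3 each).

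Of 14 general macrophage genes, 12 lay below without overlap and 0 above, against 13% and 8.56% of all genes. Their median log2 change was -0.74, and none passed limma's adjusted threshold. Ms4a7 had a log2 change of -1.30 (limma adjusted p = 0.0604), Adgre1, a surface antigen of mature macrophages, one of -0.95 (limma adjusted p = 0.134), the complement gene C1qa one of -0.82 (limma adjusted p = 0.0756) and the mannose receptor Mrc1 one of -0.65 (limma adjusted p = 0.0604). The list mean was 8.33, 8.48 and 8.06 in L_FMG against 9.07, 8.92 and 8.94 in RMG. Those groups did not overlap, and the L_FMG values lay below the 3 HFD arrays (8.73, 8.91 and 8.74) too. Of 14 genes of lipid-laden macrophages, 12 lay below without overlap and 1 above (median -0.51). Trem2, the lipid receptor that marks these cells, was at 8.04, 8.60 and 7.98 in L_FMG against 9.26, 9.35 and 9.06 in RMG (log2 change -1.02 ± 0.42, limma adjusted p = 0.24), and the protease gene Ctsk had -1.08 (limma adjusted p = 0.148). The one above was Fabp4, at 0.18, which fat cells express strongly.

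The resident macrophage list had members on both sides. Of its 11 genes, 5 had positive and 6 negative log2 changes, with a median of -0.31. Only Pf4 passed (lower, as 0.209% of all genes did). Without overlap 4 lay below and 1 above, against 13% and 8.56% of all genes, and the count above is near that share. The one above was Retnla, a secreted marker of alternatively activated macrophages, at 9.49, 9.64 and 9.87 in L_FMG against 8.62, 7.93 and 8.40 in RMG (log2 change 1.35 ± 0.30, limma adjusted p = 0.055). It stood opposite to Mrc1, another member.

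Of 19 lysosome genes 17 lay below without overlap and 0 above (median -0.47), with 0 passing, where 13% of all genes lay below and 8.56% above. Npc1, the cholesterol exporter of the lysosome, had a log2 change of -0.62 (limma adjusted p = 0.0604), Gusb, the beta-glucuronidase, one of -0.72 (limma adjusted p = 0.0862) and Atp6v1c1, a subunit of the proton pump, one of -0.65 (limma adjusted p = 0.081). Wdr7, a partner of that pump outside the list, fell by 0.83. Of 14 Toll-like receptor genes 1 passed (Ly96), where 0.209% of all genes passed as lower. Without overlap 8 lay below and 1 above (median -0.35). Those below included Cd14, the endotoxin co-receptor, at -1.0 (limma adjusted p = 0.0773) and Tlr2 at -0.35. Of 11 Fc receptor genes 4 lay below and 0 above (median -0.19): the activating receptors Fcgr4 and Fcgr1 had -0.98 and -0.96, and their shared signalling chain Fcer1g had -0.80.

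Secreted signals were uneven. In the 13 CC chemokine genes the median was -0.07, with Ccl3 at -1.31 (4.84, 5.15 and 4.71 in L_FMG against 6.12, 6.38 and 6.13 in RMG, limma adjusted p = 0.083) and Ccl2, which draws in monocytes, at -0.73. In the 19 cytokine genes it was -0.02, with Il1rn, the interleukin 1 receptor antagonist, at -1.07 (limma adjusted p = 0.0632) and Tnf at -0.68 (limma adjusted p = 0.117). The 28 interferon-induced genes had a median of 0.07. Without overlap 4 lay above and 1 below, against 8.56% and 13% of all genes. These counts are too near to those shares to be read as a difference. Iigp1 and Gbp3, both above, had 1.05 (limma adjusted p = 0.12) and 0.71 (limma adjusted p = 0.0974). Oasl1, the 1 below, had -0.60 (limma adjusted p = 0.055). The 16 CXC chemokine genes had a median of -0.13, with 2 above and 5 below without overlap. Cxcl9, above, had 0.70 (limma adjusted p = 0.153). Lymphocyte and neutrophil lists lay near 0, with medians of 0.16 for 8 T lymphocyte genes, 0.01 for 9 B lymphocyte genes and 0.01 for 8 neutrophil genes. Of the 8 T lymphocyte genes 6 had positive log2 changes. Il7r had -0.95 (limma adjusted p = 0.341), with all L_FMG arrays below all RMG arrays. In the mast cell list the median was 0.01, with 1 of 11 genes above and 3 below without overlap. Hdc, the enzyme that makes histamine, had 0.44. Cpa3, a carboxypeptidase, was at 5.81, 6.12 and 4.64 in L_FMG against 7.26, 7.85 and 6.84 in RMG (log2 change -1.80 ± 0.62, limma adjusted p = 0.147), and Cma1 had -1.0.

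**Figure D3:**
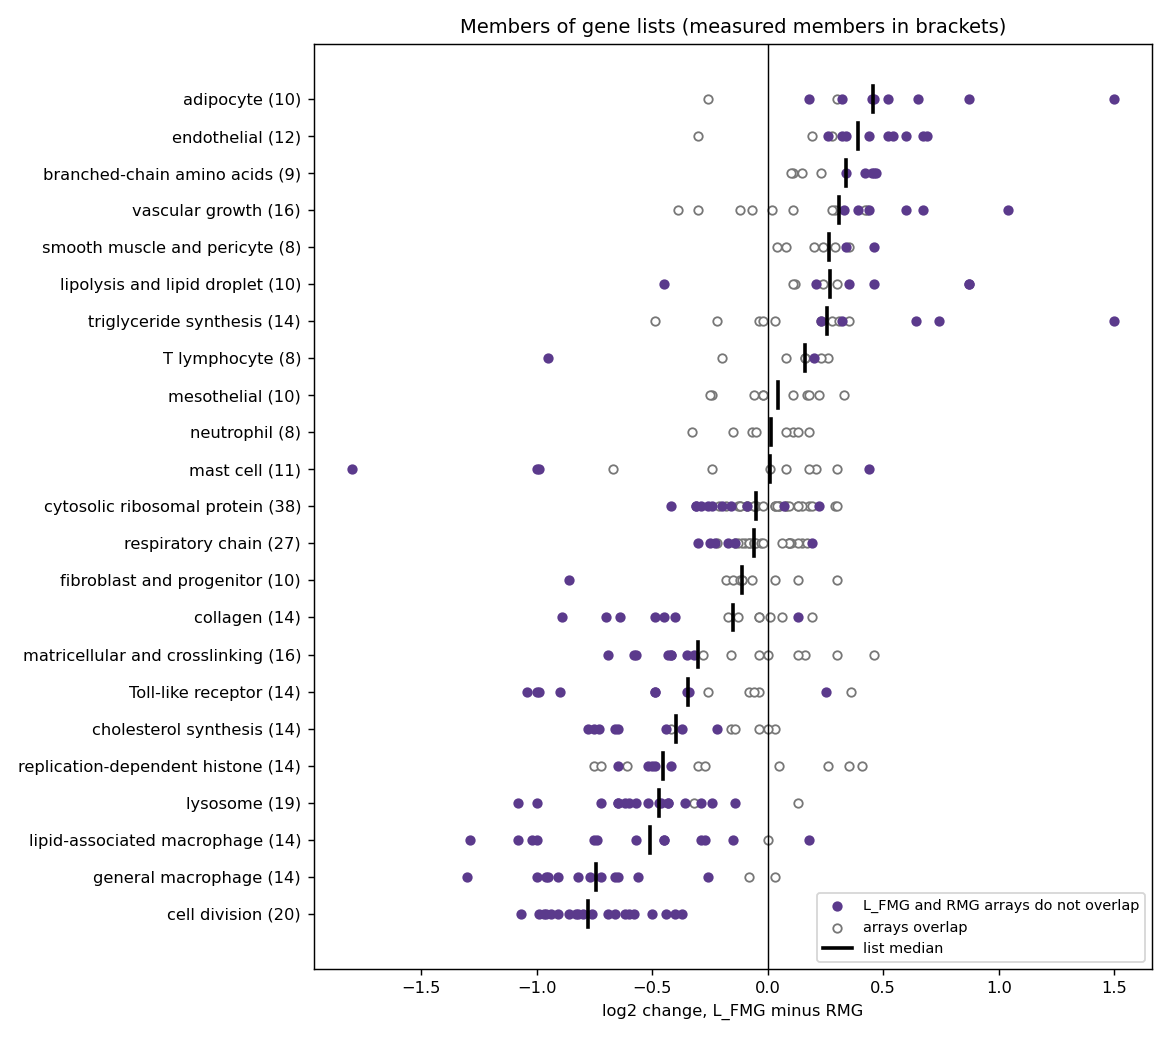
Log2 change, L_FMG minus RMG, of each measured member of 23 gene lists (dots, filled where the 3 L_FMG and 3 RMG arrays do not overlap) and the list median (bar), ordered by median. The cell division list is at the bottom with 20 of 20 filled dots left of 0, and the adipocyte list at the top with a median of 0.46.

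Col8a1, a short-chain collagen of vessel walls and remodelled tissue, fell by 0.89 (5.79, 5.70 and 5.70 in L_FMG against 6.61, 6.68 and 6.56 in RMG, limma adjusted p = 0.0307). Its HFD mean of 6.04 ± 0.03 was close to the ND mean of 5.77 ± 0.08 (SD, n = 3 each), so RMG stood above both. Col1a1 was at 9.41, 9.23 and 9.09 in L_FMG against 10.03, 9.87 and 9.91 in RMG (log2 change -0.70, limma adjusted p = 0.0604), Col1a2 had -0.64 (limma adjusted p = 0.055) and Col3a1 -0.49 (limma adjusted p = 0.11). Of the 14 collagen genes 1 passed (Col8a1), where 0.209% of all genes passed as lower. Without overlap 6 lay below and 1 above (median -0.15), where 13% of all genes lay below and 8.56% above. Of the 16 matricellular and crosslinking genes 8 lay below and 0 above (median -0.30, and -0.10 without L_FMG 10). Postn, the matrix protein periostin, had -0.57 and Pcolce, the enhancer of procollagen cleavage, -0.69, both with a limma adjusted p of 0.055. The microfibril gene Mfap5 had -0.71, and Lum, the proteoglycan lumican, -0.86 (limma adjusted p = 0.0989). Some matrix genes lay above RMG, among them Prelp, a leucine-rich proteoglycan, at 0.26. Timp3, an inhibitor of matrix proteases, was at 8.95, 8.63 and 8.64 in L_FMG against 8.01, 7.51 and 8.0 in RMG (log2 change 0.90, limma adjusted p = 0.055), whereas the membrane protease Mmp14 had -0.52. Fibroblast and progenitor markers had a median of -0.11, with 1 of 10 below without overlap, near the share over all genes.

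The remaining fallers are spread over several functions. Myh15, a myosin heavy chain, fell by 1.61 (4.23, 4.87 and 4.23 in L_FMG against 6.28, 5.92 and 5.95 in RMG), and Gnal, a stimulatory G protein subunit known from olfactory neurons, by 1.43. Galnt12, which starts mucin-type sugar chains, fell by 1.29, and the small nucleolar RNA DQ267101 by 1.00 on its brighter probe, while its second probe gave 0.11. With the mean of both probes DQ267101 did not pass (limma adjusted p = 0.113). Cfl1, which encodes the actin-severing cofilin, Arpc4, a subunit of the complex that branches actin filaments, and Abi1, part of the complex that switches it on, fell by 0.51 to 0.56. Their arrays varied little within a group, for Arpc4 8.03, 8.12 and 7.87 in L_FMG against 8.53, 8.60 and 8.56 in RMG. Npy, the gene of neuropeptide Y, fell by 0.77, Serpinb2, a plasminogen activator inhibitor, by 0.79 and Pacc1, the proton-activated chloride channel, by 0.77. Serpinb2 was dim, with means of 2.79 in L_FMG, 3.58 in RMG, 2.88 in HFD and 2.72 in ND, so RMG alone stood apart among these groups. Pcdh7, Fhl3, Pmp22, Rap2a and Plp2 fell by 0.57 to 0.78. Eif5a, a translation factor, Polr2e, a subunit of the RNA polymerases, Pa2g4, a growth-regulated RNA-binding protein, Otub1, a deubiquitinase, and Samd8, of the sphingomyelin synthase family, fell by 0.41 to 0.50, the smallest changes that passed.

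Some of the largest differences did not pass. On the higher side these were Mir680-1 and Rbp7, a retinol-binding protein of fat capillaries, each at 1.51 (limma adjusted p = 0.054 and 0.055), and Orm3, an acute-phase protein, at 1.39 (limma adjusted p = 0.0748). Rbp7 was at 6.47, 6.90 and 7.43 in L_FMG against 5.59, 5.10 and 5.57 in RMG. Gbp4 had a log2 change of 1.16 (limma adjusted p = 0.133). The small RNA Rnu3a had a log2 change of 1.34, Snora75 one of 1.28 and Mir3962 one of 1.06, and array L_FMG 10 was high for the first pair, at 9.37 for Rnu3a beside 7.67 and 8.06 in the other L_FMG arrays. On the lower side were, after Cpa3, Olfr111 at -1.66, Ms4a14 at -1.44 and Zranb3 at -1.37. In the core panel of 25 measured obesity genes, Pck1 and Vegfa passed, and 9 lay above and 9 below without overlap. Over all genes 0.314% passed, 8.56% lay above and 13% below. The median of the panel was -0.18.

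The 38 cytosolic ribosomal protein genes had a median log2 change of -0.05 and the 27 respiratory chain genes one of -0.06. The 10 heat shock genes had -0.01, the 17 immediate early genes -0.02 and the 10 mesothelial genes 0.05. The 17 unfolded protein genes had -0.11, and Sdf2l1, a chaperone partner of the endoplasmic reticulum, had -0.72 (limma adjusted p = 0.0593). In the 13 clock genes, with a median of 0.18, Npas2 had -0.85 (limma adjusted p = 0.0583) and Nr1d1, a repressor of the clock, 0.66.

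The HFD and ND arrays, which enter the fit's estimate of the spread but not the log2 changes of L_FMG against RMG, show where L_FMG and RMG lie relative to the effect of the diet. Between HFD and ND, limma called 1063 genes higher in HFD (6.54% of genes) and 340 lower (2.09%). Of the 1063 genes, 1045 (98.3%) had an L_FMG mean below the RMG mean, with a median log2 change of -0.40. Of the 340 genes, 74.7% had an L_FMG mean above RMG, with a median of 0.13, while 48.4% of the 14845 genes not called had an L_FMG mean below RMG. The mean of the 1063 genes was 6.83, 6.91 and 6.64 in the L_FMG arrays and 7.27, 7.21 and 7.22 in the RMG arrays, against 7.06, 7.23 and 7.07 in HFD and 6.38, 6.33 and 6.46 in ND. The L_FMG arrays lay between ND and HFD, and the RMG arrays at the level of the highest HFD array. The 1063 and the 340 genes were chosen for a gap between the HFD and ND arrays. That choice by itself favours a place between HFD and ND for other groups, so nothing is read from such a place. For the 340 genes the means were 4.53, 4.57 and 4.67 in L_FMG, 4.39, 4.41 and 4.37 in RMG, 4.38, 4.29 and 4.36 in HFD and 4.90, 4.94 and 4.98 in ND. Over all 16248 genes the log2 changes of L_FMG against RMG and of HFD against ND had a Pearson correlation of -0.63. These points share arrays and cell mixture within each axis, and genes are not independent replicates.

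**Figure D4:**
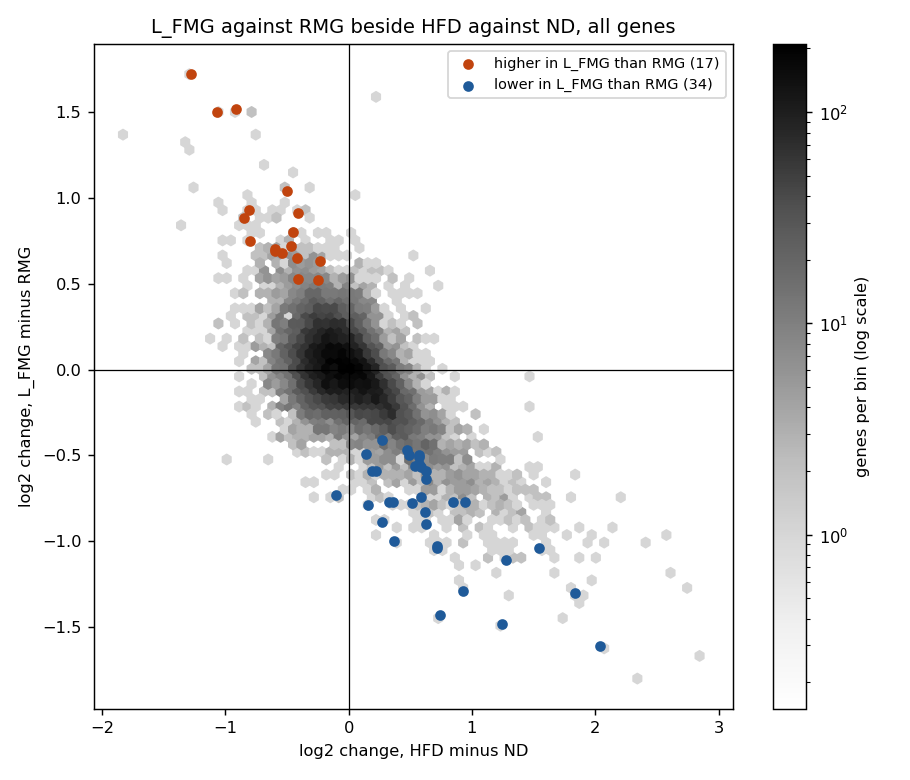
Log2 change of L_FMG minus RMG (vertical) against that of HFD minus ND (horizontal) for all 16248 genes, as grey hexagons by number of genes, with the 17 genes higher and 34 lower in L_FMG in colour. The cloud slopes downwards, and of the coloured genes only Troap, at -0.73 and -0.10, lies below 0 on both axes, and none lies above 0 on both.

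The 51 genes followed the same axis. Of the 34 that fell, 23 were called higher in HFD than in ND and 0 lower, and of the 17 that rose, 11 were called lower in HFD and 0 higher. The HFD mean lay between the L_FMG and RMG means for 50 of the 51 genes (98%), for 90.3% of the 2495 genes with an unadjusted p under 0.05 and for 45.1% of all genes. A large difference between L_FMG and RMG by itself favours such a position, so nothing is read from it. In 9 of the 34 fallers the L_FMG mean was below that of ND, and in 8 of the 17 risers above it. Means of some cell type marker lists moved along the same axis. The general macrophage list was at 8.29 in L_FMG, 8.98 in RMG, 8.79 in HFD and 7.76 in ND. Others did not: in the same order, the epididymal duct list was at 3.01, 3.22, 2.96 and 3.17. The neutrophil list was at 3.87, 3.88, 3.9 and 3.83. The part of cell types in the single genes was not tested. The ND arrays were uneven: ND 9 had a branched-chain amino acid list mean of 7.07, against 7.93 and 7.89 in ND 6 and ND 8, and a lysosome list mean of 8.87, against 8.40 and 8.36.

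**Figure D5:**
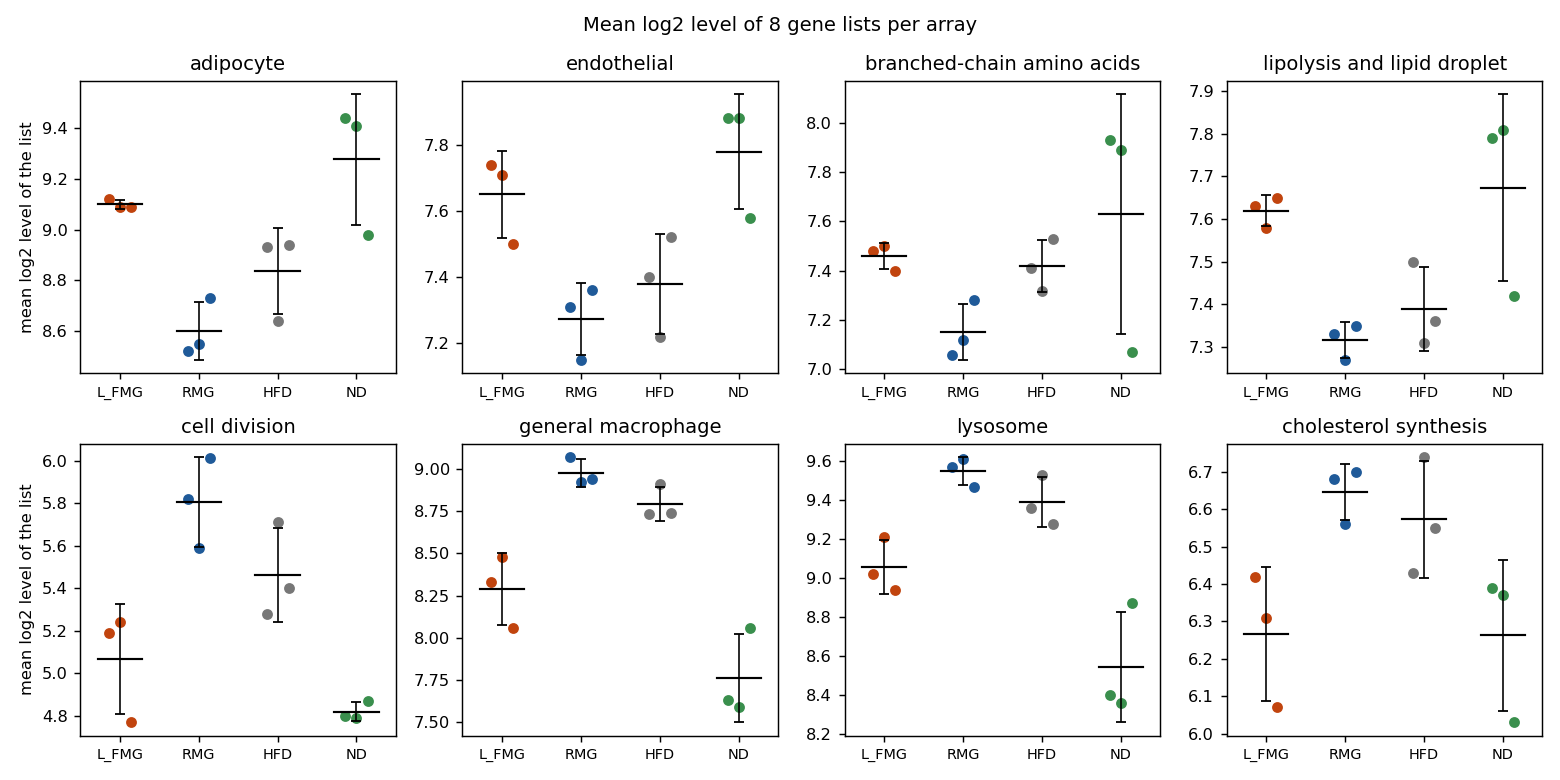
Mean log2 level of 8 gene lists in each array (dots), with the group mean (line) and SD (bar), for L_FMG, RMG, HFD and ND, 3 arrays each. The L_FMG and RMG dots do not overlap in any of the 8 panels, and 1 ND array, ND 9, lies apart from the other ND arrays in most panels.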

How the data were processed

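The deposited values were log2 levels, 1 per probe and array. The authors' summarisation and normalization, not given in the sources used here, were kept, and the log base was taken from their range of 0.844 to 12.7. Per the labels' protocols, Trizol RNA was converted to sense cDNA and labelled with biotin for GeneChip whole-transcript arrays. Columns were matched by title, and 0 were unmatched. Of 24291 complete probes, 17067 had 1 gene symbol in the platform annotation, 1139 several and 6085 none. The brightest single-symbol probe by mean over the 21 arrays stood for each of 16248 genes, 668 of which had several probes. The table is held in part: most chromosomes had 78.4 to 91.1 percent of their protein-coding genes, chromosome 6 had 42 percent, and chromosomes 7, 8, 9, X and Y held 17 genes.

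With limma 3.58.1 (R 4.3.3), a model of 1 coefficient per group and an intensity trend was fitted over all 21 arrays, and two-sided p-values received the Benjamini-Hochberg adjustment over all genes. The test was checked on simulated data. Title numbers 4 and 10 occur in both groups, and the deviations of same-numbered arrays correlated at -0.2 and -0.3, so arrays were not treated as pairs. No batch is given in the labels. The number of arrays limits the precision. Genes named are the 10 largest rises and falls past the threshold, the 10 largest differences without overlap, up to 3 members per list by p, and the core panel, of which a selection is given, and other genes that passed or that mark a list were named after their values were seen. The comparison, the 58 lists (1090 genes, 727 measured) and the rule were chosen with earlier results of these data known. Promoters and gene order came from RefSeq tables.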

Additional observations from a re-analysis of the deposited data

How the results depend on the processing

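The 51 genes (17 higher, 34 lower) became 148 (79, 69) under quantile normalization, 26 (7, 19) with arrays centred on their medians, 717 (217, 500) with only the L_FMG and RMG arrays in the fit, 7 (2, 5) without the intensity trend, 948 (404, 544) with array weights, 190 (65, 125) without the dimmest genes, and 133 (24, 109) with the title number as a replicate block, where 34 of the 51 passed again. The robust prior, the mean of probes and every complete probe gave 48, 47 and 47. Leaving out 1 array gave 0 to 11 genes, 0 to 5 higher and 0 to 6 lower. The 51 kept their sign in every refit that held them. Where arrays were only left out or weighted this was fixed in advance, since their L_FMG and RMG arrays did not overlap. Of 762 refits of these genes 383 lost the call, and of 1393 refits of 93 other named genes 208 gained it and 3 turned the sign: Lep ran between -0.42 and 0.01 with 1 array left out (0.01 without L_FMG 10), and Fasn between -0.02 and 0.15 (-0.02 without RMG 9), and was -0.11 with the replicate block. The cause was not tested, except that fewer arrays or genes enter some fits. Medians of 31 of 58 lists kept their sign throughout. For the cell division list they ran between -0.89 and -0.58, for the general macrophage list between -0.86 and -0.62, and for the adipocyte list between 0.34 and 0.55. The share of genes higher in HFD than ND with L_FMG below RMG, added after seeing the data, stayed within 95.1 to 98.9 percent, and that of genes lower in HFD with L_FMG above RMG within 67.6 to 85.2 percent.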
